A study of Homo sapiens with 18 samples.

Results

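PDK4, the pyruvate dehydrogenase kinase that shuts the pyruvate dehydrogenase (PDH) complex, was followed here together with 7 genes that encode its regulators and 2 genes that share those regulators. The regulators were the 3 peroxisome proliferator-activated receptors PPARA, PPARD and PPARG, the coactivator PPARGC1A, the estrogen-related receptor ESRRA, the forkhead factor FOXO1 and the glucocorticoid receptor NR3C1, and the co-targets were CPT1A and ANGPTL4. Each was taken as the row of the expression table with that symbol, which gave 10 of the 19849 genes measured, each by 1 probe set. PDK4 itself was chosen by its measured fall in mesenchymal against parental cells of these arrays, so its values are given as a description without a test. The other 9 were named for their known link to PDK4, but with earlier results of these data known. Their tests are therefore not free of that choice.

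The study asked how gene expression changed when lung cancer cells went through epithelial-mesenchymal transition (EMT). The 18 arrays held 3 parental samples and 3 mesenchymal derivatives per line, and the lines were A549, HCC827 and NCI-H358, established from human lung cancers. Parental cells grew without added transforming growth factor β (TGFβ), and mesenchymal derivatives were kept in 2 ng/ml TGFβ over 3 weeks and moved to medium lacking it on the day before lysis. The study's methods give ranges of exposure that start lower for A549 than for the other lines, so exposure may have differed by line, and its part in the differences between lines was not tested. All groups grew in RPMI1640 with serum and glutamine. The 3 samples of a group were made at the same time, so p-values speak of the spread between such samples, and the mesenchymal state was measured together with the long TGFβ exposure that produced it, which cannot be told apart here. Levels are log2 values after robust multi-array averaging (RMA), in which 1 unit is a 2-fold difference, and they were compared between groups for 1 gene at a time.

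PDK4 phosphorylates and switches off the PDH complex, which feeds pyruvate into the tricarboxylic acid cycle, and its gene is known to be turned on in fasting. Fatty acids act on it through the PPARs, PPARGC1A works as a coactivator for PPARs and ESRRA, FOXO1 acts when insulin signalling is low, and glucocorticoids act through NR3C1. CPT1A, the carnitine palmitoyltransferase that lets long-chain fatty acids into mitochondria, and ANGPTL4, a secreted inhibitor of lipoprotein lipase, are textbook PPAR targets and are also raised in fasting.

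The promoters of the 3 target genes are shown because the comparison turns on whether they moved together. Each is the RefSeq (GRCh38.p14) window from 250 bases before to 50 bases after the start of the transcript, written 5′ to 3′ on the gene's strand, at chr7:95596467-95596766 on the minus strand for PDK4, chr11:68844228-68844527 on the minus strand for CPT1A and chr19:8363905-8364204 on the plus strand for ANGPTL4. Capitals mark any match, on either strand, to the nuclear receptor hexamer AGGTCA, the estrogen-related receptor element TCAAGGTCA (which holds that hexamer), the FOXO site GTAAACA or the glucocorticoid receptor hexamer TGTTCT.
PDK4: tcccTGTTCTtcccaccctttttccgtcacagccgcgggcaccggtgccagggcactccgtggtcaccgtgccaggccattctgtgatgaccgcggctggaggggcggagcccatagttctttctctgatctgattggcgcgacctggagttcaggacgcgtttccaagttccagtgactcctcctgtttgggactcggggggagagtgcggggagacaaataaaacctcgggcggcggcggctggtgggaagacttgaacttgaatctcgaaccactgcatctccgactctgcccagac
CPT1A: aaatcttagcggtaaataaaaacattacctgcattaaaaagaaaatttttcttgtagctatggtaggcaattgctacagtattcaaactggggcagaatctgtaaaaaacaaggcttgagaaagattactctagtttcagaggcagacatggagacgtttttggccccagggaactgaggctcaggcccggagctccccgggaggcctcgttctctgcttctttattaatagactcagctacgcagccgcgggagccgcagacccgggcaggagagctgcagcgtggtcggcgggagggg
ANGPTL4: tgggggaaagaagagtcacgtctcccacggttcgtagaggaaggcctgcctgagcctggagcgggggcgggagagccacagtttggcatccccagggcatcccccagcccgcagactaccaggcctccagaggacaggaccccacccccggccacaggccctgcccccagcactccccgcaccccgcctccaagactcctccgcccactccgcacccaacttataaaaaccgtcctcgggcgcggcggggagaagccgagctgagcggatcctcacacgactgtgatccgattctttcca

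PDK4 held 1 match, to TGTTCT, which began at position -246 from the start, and the CPT1A and ANGPTL4 windows held none. Among 35116 RefSeq promoter windows of this length, 14.8% held TGTTCT, 13.8% AGGTCA, 3.42% GTAAACA and 0.353% TCAAGGTCA. Of the 23 promoters listed for the 10 genes, PPARD had 1 match to TGTTCT, PPARG had 3 sites of AGGTCA over its 6 promoters, 1 of them read in a pair of overlapping windows, and NR3C1 had 1 to the FOXO site, for 6 sites in all. A match describes the letters in these windows and not binding, and elements outside the windows were not searched.

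PDK4 was high in all 3 parental lines and low in all 3 mesenchymal derivatives. In A549 its level was 9.09, 8.62 and 8.73 on the parental and 3.66, 3.31 and 3.86 on the mesenchymal arrays. HCC827 gave 8.39, 7.79 and 7.40 against 3.59, 3.58 and 3.34, and NCI-H358 gave 6.94, 7.41 and 7.62 against 4.35, 4.07 and 4.38. Parental and mesenchymal arrays did not overlap in any line, and the lowest parental array lay above every mesenchymal array. The mesenchymal level of A549 was 36.9-fold lower, that of HCC827 20.5-fold and that of NCI-H358 8.33-fold, as log2 differences of -5.20, -4.36 and -3.06 with a standard error of 0.22 each. In the order of the 6 groups, parental HCC827 and parental NCI-H358 overlapped, as did mesenchymal A549 and mesenchymal HCC827, and the other neighbours did not. In these bulk samples, fewer cells with PDK4 transcript and less transcript per cell cannot be told apart. Of all genes, 180 (0.907%), PDK4 among them, were called lower in all 3 lines by the rule given below. PDK4 was chosen for this pattern, so its place there was settled beforehand and is no test result.

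**Figure D1:**
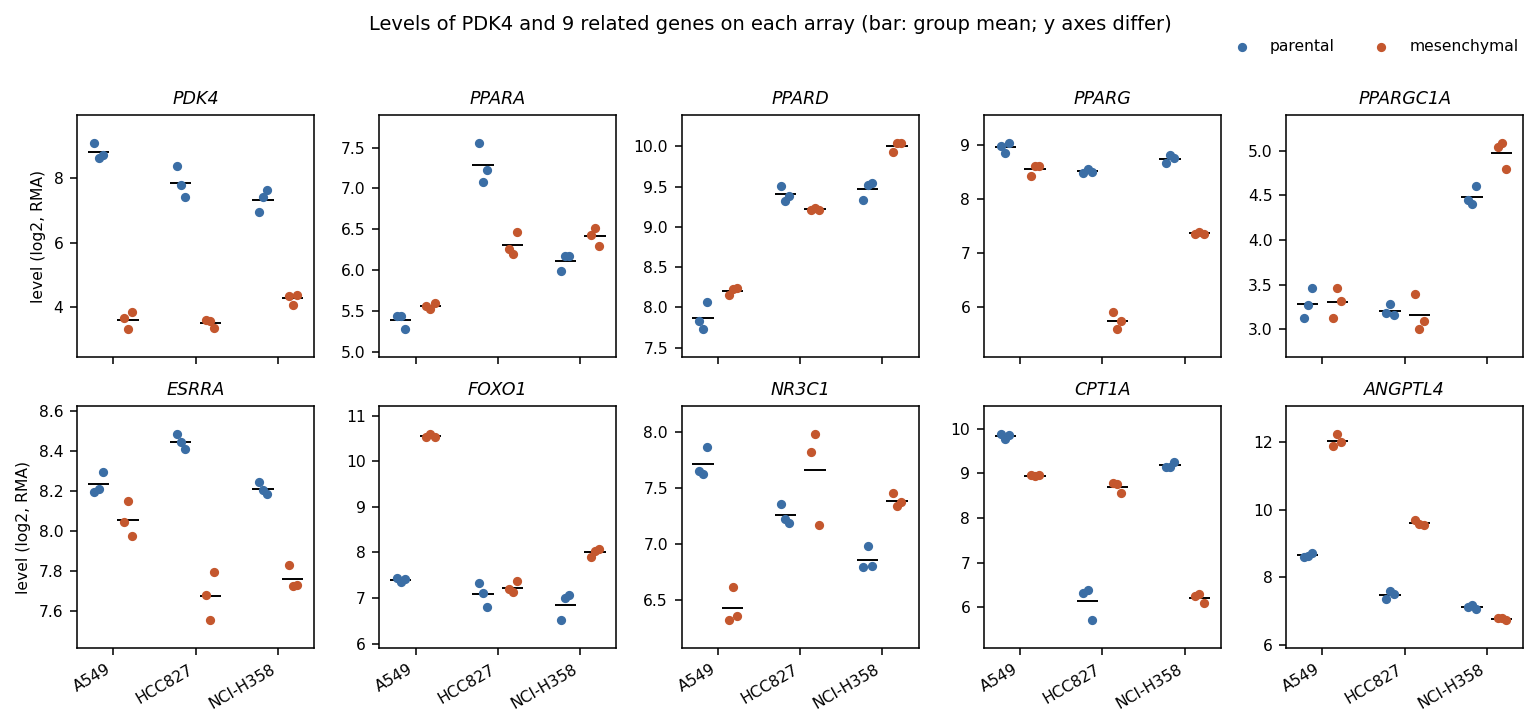
Level (log2, RMA) of PDK4 and the 9 related genes on each of 3 parental (blue) and 3 mesenchymal (orange) arrays per line, with a bar at the group mean and a separate y axis for each gene. PDK4 was low in all 3 mesenchymal groups, FOXO1 and ANGPTL4 were high in mesenchymal A549, and CPT1A moved in opposite directions in HCC827 and NCI-H358.

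For the 9 other genes, changes upon EMT were tested with limma over all 19849 genes, with p-values adjusted by Benjamini-Hochberg. Calls needed an adjusted p under 0.05 together with a fold above 2. In A549, 2 of the 9 were called higher (all genes 4.15%) and 1 lower (3.87%). In HCC827, 2 were higher (4.89%) and 1 lower (6.58%), and in NCI-H358, 1 was higher (3.96%) and 2 lower (5.42%). No gene of the 9 was called lower in all 3 lines, but few genes were (0.907% of all), so this count says little. Their median change was 0.01, -0.05 and 0.31 for A549, HCC827 and NCI-H358, beside -0.02, 0.01 and 0.02 (log2) for all genes. Parental and mesenchymal arrays did not overlap for 8, 6 and 9 of the 9 genes (A549, HCC827, NCI-H358), where 52.4%, 51.2% and 51.6% of all genes did not. Without the fold limit, 7, 6 and 9 of the 9 had an adjusted p under 0.05 (all genes 43.4%, 45.8% and 41.4%; A549, HCC827, NCI-H358), and with the study's own thresholds of an adjusted p under 1e-05 and a fold above 5 the counts were 2, 2 and 1 (all genes 1.9%, 2.95% and 2.17%). With 3 arrays on each side, the smallest two-sided p of an exact permutation is 0.1. Each test below therefore rests on the limma model, which pools a gene's spread over the 6 groups and draws on that of other genes.

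**Figure D2:**
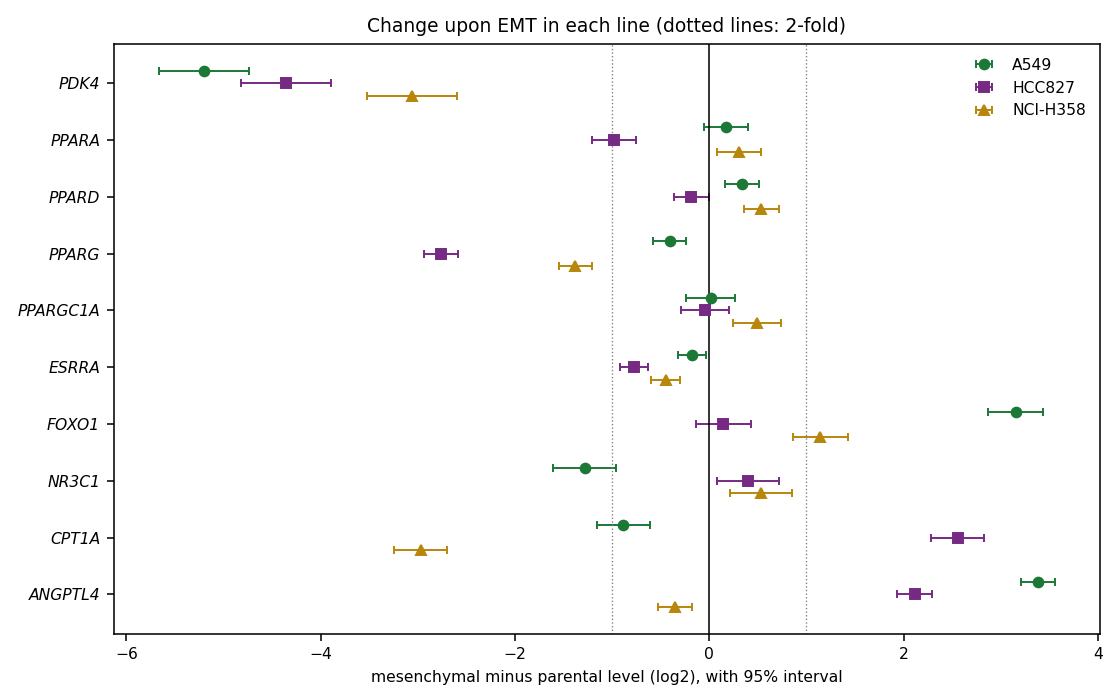
Mesenchymal minus parental level (log2) of each gene in A549 (circles), HCC827 (squares) and NCI-H358 (triangles), with 95% intervals from the limma fit and dotted lines at a 2-fold change. PDK4 lay left of the dotted line in all 3 lines, PPARG in HCC827 and NCI-H358, and CPT1A spanned from -2.97 in NCI-H358 to 2.56 in HCC827. PDK4 was chosen for its fall, so its intervals are a description and not a test.

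Of the 3 PPAR genes, PPARG, the receptor best known from fat cells, was the one whose level was lower in the mesenchymal cells of every line. PPARG stood at 8.98, 8.85 and 9.03 on the parental A549 arrays and at 8.42, 8.60 and 8.62 on the mesenchymal ones, a difference of -0.41 ± 0.08 (SE, n = 3 against 3; limma adjusted p = 0.000556) that did not reach 2-fold. In HCC827 it fell from 8.49, 8.56 and 8.51 to 5.92, 5.60 and 5.74, which was 6.78-fold (limma adjusted p = 3.66e-14). In NCI-H358 it fell from 8.67, 8.82 and 8.75 to 7.35, 7.39 and 7.36, which was 2.60-fold (limma adjusted p = 3.29e-10). No array of one state reached those of the other in any line, and mesenchymal A549, at a mean of 8.55, overlapped parental HCC827, at 8.52. The sizes ran in another order than for PDK4: the PPARG change was smallest in A549, where PDK4 differed most between the states. The change in HCC827 minus that in A549 was -2.35 ± 0.12 (SE; limma adjusted p = 5.37e-11), and the change in NCI-H358 minus that in A549 was -0.97 ± 0.12 (limma adjusted p = 2.98e-06).

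PPARA, the fatty acid receptor that dominates in liver, was not called in any line and took opposite signs. In HCC827 it stood at 7.55, 7.08 and 7.23 on parental and at 6.26, 6.20 and 6.47 on mesenchymal arrays, 1.97-fold lower (limma adjusted p = 6.79e-07), just inside the 2-fold limit, which it passed without parental replicate 2 (-1.08), parental replicate 3 (-1.01) or mesenchymal replicate 3 (-1.06). In NCI-H358 the values were 5.99, 6.17 and 6.17 against 6.44, 6.52 and 6.30, a difference of 0.31 ± 0.11 (SE; limma adjusted p = 0.029, and 0.119 without parental replicate 1), and in A549 they were 5.44, 5.44 and 5.28 against 5.56, 5.52 and 5.60, a difference of 0.17 ± 0.11 (limma adjusted p = 0.213). The arrays of the states lay apart in each line, in HCC827 with the parental arrays above and in the other lines below. Parental HCC827 was the highest group, 3.73-fold above parental A549 (limma adjusted p = 7.21e-11).

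PPARD, the widely expressed member of the family, moved by less than 2-fold in each line. A549 showed a difference of 0.33 ± 0.08 (SE; limma adjusted p = 0.0033), HCC827 one of -0.18 ± 0.08 (adjusted p = 0.0837) and NCI-H358 one of 0.54 ± 0.08 (adjusted p = 4.32e-05). Its levels differed more between lines than between states: the parental and mesenchymal means were 7.87 and 8.21 for A549, 9.40 and 9.22 for HCC827, and 9.47 and 10.0 for NCI-H358. Parental HCC827 and NCI-H358 overlapped, and both were above parental A549, by 2.88-fold and 3.02-fold (limma adjusted p = 4.48e-11 and 2.2e-11).

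PPARGC1A, the coactivator of PPARs and ESRRA, was the gene of the 9 with the smallest changes in A549 and HCC827. Its level was 3.13, 3.27 and 3.47 on parental and 3.13, 3.47 and 3.32 on mesenchymal A549 arrays, and 3.19, 3.29 and 3.16 against 3.40, 3.00 and 3.09 in HCC827. The arrays of both states and both lines overlapped, with 95% intervals of the change from -0.24 to 0.26 in A549 and from -0.30 to 0.20 in HCC827. No detection call comes with RMA values, so whether the gene was above background in these 2 lines could not be told. In NCI-H358 it was higher, at 4.45, 4.40 and 4.60 on parental and 5.05, 5.09 and 4.80 on mesenchymal arrays, a difference of 0.49 ± 0.12 (SE; limma adjusted p = 0.00249) that is opposite in sign to that of PDK4.

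ESRRA, an orphan nuclear receptor that drives mitochondrial genes with PPARGC1A, had a lower mean in the mesenchymal cells of every line, by less than 2-fold. It stood at 8.20, 8.21 and 8.29 against 8.04, 8.15 and 7.97 in A549, at 8.48, 8.45 and 8.41 against 7.68, 7.55 and 7.79 in HCC827, and at 8.24, 8.21 and 8.18 against 7.83, 7.73 and 7.73 in NCI-H358. All parental arrays of a line lay above its mesenchymal arrays, and the group means spanned 0.77, the narrowest range of the 10 genes. The differences were -0.18 ± 0.07 in A549 (SE; limma adjusted p = 0.0471, which was 0.05 or more in 16 of 23 alternative fits, up to 0.217), -0.77 ± 0.07 (adjusted p = 5.18e-08) and -0.45 ± 0.07 (adjusted p = 3.77e-05). The change in HCC827 minus that in A549 was -0.60 ± 0.10 (SE; limma adjusted p = 8.41e-05).

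FOXO1, a forkhead factor that turns on fasting genes and is held in the cytoplasm by insulin and AKT signalling, was called higher in A549 and NCI-H358 and lower in no line. In A549 it rose from 7.43, 7.36 and 7.42 to 10.5, 10.6 and 10.5, an 8.89-fold change (limma adjusted p = 4.66e-12) in the line with the largest PDK4 difference. In NCI-H358 it rose from 6.51, 7.002 and 7.06 to 7.90, 8.03 and 8.07, which was 2.21-fold (limma adjusted p = 1.86e-06). Leaving out the lowest parental NCI-H358 array, replicate 1, brought that change from 1.14 to 0.97 and under the 2-fold limit (limma adjusted p = 5.22e-06). In HCC827 the values were 7.33, 7.12 and 6.80 against 7.19, 7.12 and 7.37, which overlapped, and the difference was 0.14 with a 95% interval from -0.14 to 0.43 (limma adjusted p = 0.429). The change in HCC827 minus that in A549 was -3.01 ± 0.19 (SE; limma adjusted p = 1.22e-09), and for NCI-H358 minus A549 it was -2.01 ± 0.19 (adjusted p = 1.88e-07). Parental A549, both HCC827 groups and parental NCI-H358 overlapped from one neighbour to the next. The array measured transcript, and the cellular location and phosphorylation of FOXO1 were not measured.

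NR3C1, the glucocorticoid receptor, fell in A549 and was called in no other line. In A549 it went from 7.65, 7.63 and 7.87 to 6.32, 6.62 and 6.36, which was 2.43-fold lower (limma adjusted p = 2.25e-06). In HCC827 the values were 7.36, 7.22 and 7.18 against 7.82, 7.98 and 7.17, with mesenchymal replicate 3 below all parental arrays and a difference of 0.40 ± 0.15 (SE; limma adjusted p = 0.0392). That difference was 0.24 without mesenchymal replicate 2 (adjusted p = 0.223) and 0.64 without replicate 3 (adjusted p = 8.31e-05). In NCI-H358 they were 6.79, 6.98 and 6.80 against 7.45, 7.34 and 7.37, a difference of 0.53 ± 0.15 (limma adjusted p = 0.00903). The change in HCC827 minus that in A549 was 1.68 ± 0.21 (SE; limma adjusted p = 5.81e-06), and for NCI-H358 minus A549 it was 1.81 ± 0.21 (limma adjusted p = 2.74e-06). For NCI-H358 minus HCC827 it was 0.13, with a 95% interval from -0.33 to 0.58. The glucocorticoid content of the medium was not given in the sources used here.

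CPT1A rose in HCC827 and fell in NCI-H358. In HCC827 it went from 6.31, 6.40 and 5.71 to 8.78, 8.76 and 8.55, which was 5.89-fold higher (limma adjusted p = 3.5e-11). In NCI-H358 it went from 9.14, 9.14 and 9.26 to 6.25, 6.30 and 6.09, which was 7.83-fold lower (limma adjusted p = 6.42e-12), and in A549 from 9.87, 9.78 and 9.85 to 8.96, 8.93 and 8.96, which was 1.85-fold lower (limma adjusted p = 2.6e-05) and under the 2-fold limit. The arrays of the states lay apart in each line. The change in NCI-H358 minus that in HCC827 was -5.53 ± 0.18 on the log2 scale (SE; limma adjusted p = 1.03e-12). Before TGFβ, CPT1A was 13-fold lower in HCC827 than in A549 (limma adjusted p = 1.29e-13) and 8.23-fold higher in NCI-H358 than in HCC827 (adjusted p = 2.86e-12), and mesenchymal NCI-H358 overlapped parental HCC827, the lowest groups.

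ANGPTL4 rose in the 2 lines in which PDK4 was lower by over 20-fold and not in the other. In A549 it went from 8.61, 8.62 and 8.71 to 11.9, 12.2 and 12.0, which was 10.4-fold higher (limma adjusted p = 3.94e-15). In HCC827 it went from 7.36, 7.61 and 7.50 to 9.69, 9.57 and 9.55, which was 4.32-fold higher (limma adjusted p = 1.57e-12). In NCI-H358 it stood at 7.13, 7.20 and 7.06 against 6.79, 6.81 and 6.73, a difference of -0.35 ± 0.08 (SE; limma adjusted p = 0.00245). None of the 6 groups overlapped its neighbour in the order of levels, which ran from mesenchymal A549 down to mesenchymal NCI-H358. The change in NCI-H358 minus that in A549 was -3.74 ± 0.12 (SE; limma adjusted p = 2.51e-13), and against HCC827 it was -2.46 ± 0.12 (adjusted p = 7.81e-11).

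The changes upon EMT differed between lines for most of the 9 genes. With an adjusted p under 0.05 in limma, 8 of 9 differed between HCC827 and A549 (all genes 42.2%), 7 between NCI-H358 and A549 (42.8%) and 8 between NCI-H358 and HCC827 (37.9%). Between parental lines, with a fold above 2 as well, 4 of 9 differed between HCC827 and A549 (all genes 18.8%), 3 between NCI-H358 and A549 (20.4%) and 3 between NCI-H358 and HCC827 (15.2%). ANGPTL4, like PDK4, had its highest parental level in A549, 2.23-fold above HCC827 (limma adjusted p = 2.09e-09) and 2.86-fold above NCI-H358 (adjusted p = 4.73e-11). This was not particular to ANGPTL4, as PPARG, FOXO1, NR3C1 and CPT1A also had their highest parental mean in A549. PPARA, PPARD, PPARGC1A and ESRRA had theirs in another line. PPARGC1A was higher in parental NCI-H358 than in A549 and HCC827, by 2.29-fold and 2.42-fold (limma adjusted p = 9.46e-08 and 5.77e-08). PDK4 itself was 1.93-fold lower in parental HCC827 and 2.80-fold lower in parental NCI-H358 than in A549.

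To describe which genes followed PDK4, all other 19848 genes were ranked by the root mean square difference between their 6 group means and those of PDK4, each gene centred on its own mean. A gene with equal levels in all groups would lie 2.16 log2 units from PDK4, and 8348 genes lay nearer than that. Of the 9, PPARG was the nearest at rank 192 (distance 1.605), followed by ESRRA at 1346 (1.944) and NR3C1 at 4344 (2.093, close to a flat gene). The others ranked behind a flat gene: PPARA at 12426, PPARGC1A at 16474, PPARD at 17481, CPT1A at 17497, FOXO1 at 19241 and ANGPTL4 at 19539, near the end of the list. The 5 nearest genes were FA2H, a fatty acid hydroxylase of sphingolipid synthesis, at 0.58, SDPR, a caveola protein, at 0.71, ELF3, an epithelial ETS factor, at 0.85, SLC27A2, a very long-chain acyl-CoA synthetase, at 0.91, and TBC1D8, a Rab GTPase activator by its domain, at 0.95. FA2H differed between the states by -5.96, -4.04 and -3.12 (A549, HCC827, NCI-H358), beside -5.20, -4.36 and -3.06 for PDK4. These distances rest on 6 group means of 3 arrays each and carry no test.

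**Figure D3:**
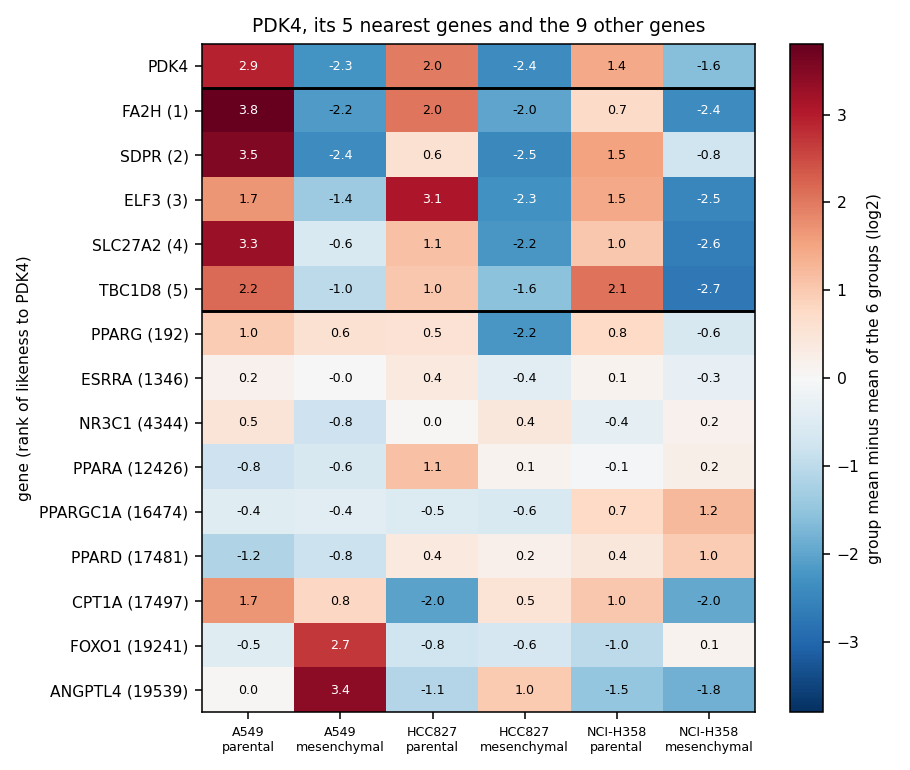
Group mean minus the mean of the 6 groups (log2, colour and printed value) for PDK4, its 5 nearest genes and the 9 related genes, with the rank of likeness to PDK4 in parentheses. The 5 nearest genes shared the high parental and low mesenchymal levels in all 3 lines, and of the 9 related genes PPARG came nearest at rank 192.

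The other genes of the pathways were taken from 5 lists. Of all genes, 8.02%, 11.5% and 9.38% were called in A549, HCC827 and NCI-H358, and the medians of all genes were -0.02, 0.01 and 0.02. Of 34 nuclear receptor partners and coregulators, A549 showed 2 that rose and 2 that fell, HCC827 also 2 and 2, and NCI-H358 1 that fell, with medians of -0.04, 0.14 and 0.11, where the shares of all genes were 8.02%, 11.5% and 9.38%. THRB, the thyroid hormone receptor β, fell in all 3 lines, with log2 changes of -1.58, -4.28 and -2.43 (limma adjusted p = 2.57e-05, 8.41e-11 and 1.58e-07). VDR, the vitamin D receptor, rose in A549 and HCC827, with changes of 2.50 and 1.07 (limma adjusted p = 1.57e-13 and 7.29e-09), with 0.17 in NCI-H358. LPIN1, a phosphatidate phosphatase that also assists PPARGC1A, fell in A549 and HCC827, with changes of -1.31 and -1.13 (limma adjusted p = 1.47e-11 and 7.27e-11), with 0.17 in NCI-H358.

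Of 43 genes of fatty acid oxidation and PPAR targets, 40 were in the table. In A549 3 rose and 2 fell, in HCC827 1 rose and 7 fell, and in NCI-H358 1 rose and 2 fell, with medians of -0.12, -0.19 and -0.07. In HCC827 4.89% of all genes rose and 6.58% fell. UCP2, a mitochondrial carrier, fell in all 3 lines, with changes of -1.08, -1.20 and -1.68 (limma adjusted p = 1.09e-06, 2.31e-07 and 4e-09). ACSL4, an acyl-CoA synthetase for arachidonate, rose in all 3, by 2.28, 1.16 and 1.34 (limma adjusted p = 1.12e-07, 0.000183 and 4.93e-05). PLIN2, which coats lipid droplets, fell in A549 and HCC827, with changes of -1.48 and -1.60 (limma adjusted p = 1.72e-10 and 4.68e-11), with -0.27 in NCI-H358.

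Of 23 FOXO targets, 6 rose and 3 fell in A549, where FOXO1 rose most, 2 rose and 4 fell in HCC827, and 2 rose and none fell in NCI-H358, with medians of 0.36, -0.11 and 0.07. In A549 4.15% of all genes rose and 3.87% fell, in HCC827 4.89% and 6.58%, and in NCI-H358 3.96% and 5.42%. KLHL24, an adaptor of ubiquitin ligases, rose by 1.71 in A549 and 1.12 in NCI-H358 (limma adjusted p = 7.58e-06 and 0.000527), with -0.27 in HCC827. IGFBP1, an insulin-like growth factor binding protein, fell in A549 and HCC827, with changes of -3.46 and -3.55 (limma adjusted p = 1.41e-10 and 7.08e-11), with -0.14 in NCI-H358. The highest values in A549, named after they were seen, were those of GABARAPL1, an autophagy protein, at 3.91, and FBXO32, a ubiquitin ligase of muscle wasting, at 3.67 (limma adjusted p = 1.57e-13 and 4.9e-15), whereas CITED2 and IRS2 of the same list fell there, with changes of -2.43 and -1.20 (limma adjusted p = 1.79e-14 and 1.86e-10). Both calls in NCI-H358 were lost, leaving 0, without parental replicate 1, and there were 4 calls without parental replicate 3.

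Of 16 glucocorticoid receptor targets, 3 rose and 3 fell in A549, 2 rose and 3 fell in HCC827, and 1 rose and 2 fell in NCI-H358, with medians of 0.13, -0.08 and -0.20, beside 8.02%, 11.5% and 9.38% of all genes called. SGK1, a kinase that acts on sodium channels, rose by 1.91 in HCC827 and 3.27 in NCI-H358 (limma adjusted p = 3.45e-11 and 5.63e-14), with -0.41 in A549, and SCNN1A, a subunit of the epithelial sodium channel, fell in all 3, with changes of -1.32, -6.77 and -4.85 for A549, HCC827 and NCI-H358 (limma adjusted p = 5.78e-08, 5.44e-17 and 4.85e-15). The calls in A549, named after their values were seen, went both ways: besides SCNN1A, the receptor's chaperone FKBP5 and the signalling inhibitor ERRFI1 fell, with changes of -2.10 and -2.02, and the metallothioneins MT1X and MT2A and the glutamine synthetase GLUL rose, with changes of 2.38, 1.91 and 2.16 (limma adjusted p at most 2.81e-11).

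The PDH complex and its other regulators, 13 genes, gave no call in A549, 2 lower in HCC827 and 1 lower in NCI-H358, with medians of -0.55, -0.48 and 0.21, beside 8.02%, 11.5% and 9.38% of all genes called. In A549 limma gave 11 of the 13 an adjusted p under 0.05 without the fold limit, as it did for 43.4% of all genes, and 1 was called with array weights or without parental replicate 1 or mesenchymal replicate 2. The genes called, named after their values were seen, were the kinase PDK1 at -1.30 and the phosphatase PDP2 at -1.27 in HCC827 (limma adjusted p = 3.77e-09 and 3.12e-08) and the kinase PDK3 at -1.47 in NCI-H358 (adjusted p = 1.46e-11). In A549 and NCI-H358, PDK1 was at -0.66 and 0.66 and PDP2 at -0.56 and -0.67. PDK3 was at -0.41 in A549 and -0.48 in HCC827. These uncalled changes had a limma adjusted p of at most 0.000399.

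**Figure D4:**
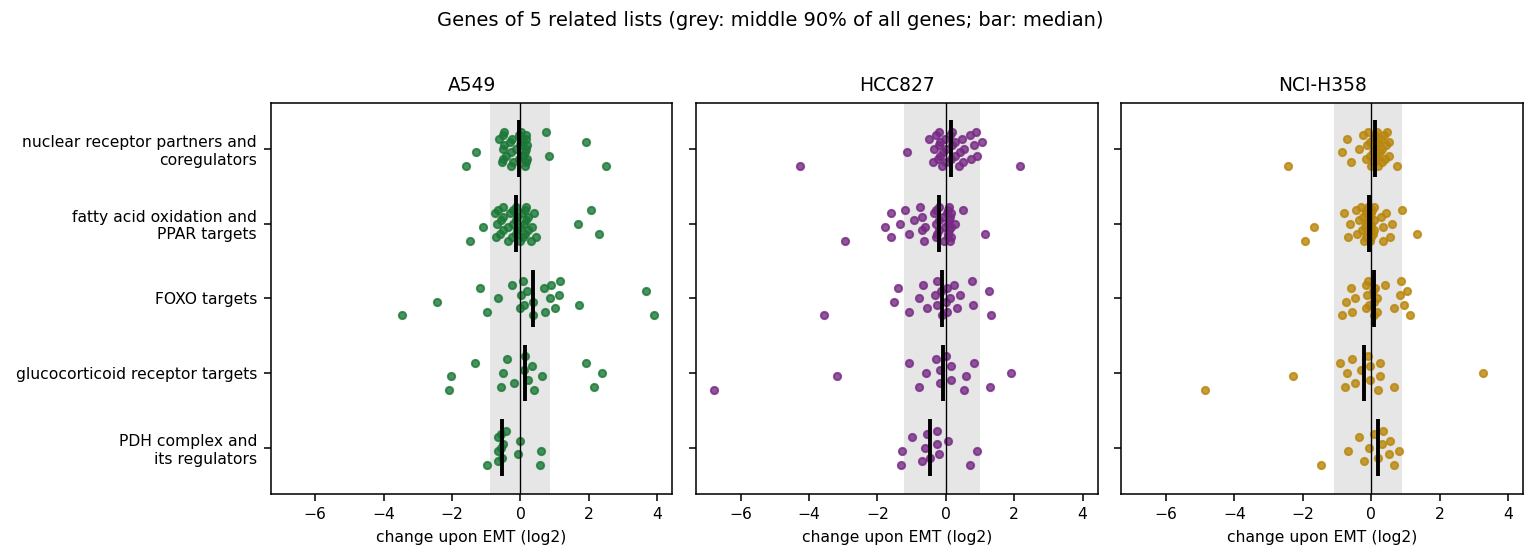
Change upon EMT (log2, mesenchymal minus parental) of each gene of the 5 lists in A549, HCC827 and NCI-H358, with a black bar at the list's median and grey over the middle 90% of all genes. The medians lay between -0.55 and 0.36 in all lists and lines, and single genes such as SCNN1A reached -6.77. The grey band describes single genes and is no measure for the median of a list.

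Markers of the transition moved as the labels say in HCC827 and NCI-H358 and in part in A549. CDH1, the epithelial cadherin, fell, with changes of -5.81, -2.95 and -3.94 for A549, HCC827 and NCI-H358, and CDH2, the neural cadherin, rose by 1.94, 3.26 and 2.04 (limma adjusted p at most 1.92e-11 for each). VIM, the mesenchymal intermediate filament protein, rose by 2.03 in HCC827 and 2.31 in NCI-H358, and ZEB1, a repressor of epithelial genes, by 4.18 and 3.66, whereas in A549 both differed by 0.79, under 2-fold. ZEB1 was already at 9.33 in parental A549 and reached 10.1 in the mesenchymal cells, beside 10.2 and 9.8 in mesenchymal HCC827 and NCI-H358. VIM was at 5.58 and 6.37 in parental and mesenchymal A549 by its 1 probe set, and no other probe set could be compared. By blot, the paper reports more Vimentin and Zeb1 protein in its TGFβ-treated cells. Of 7 epithelial markers 3 were called lower in A549 (all genes 3.87%) and 7 in each other line (6.58% in HCC827, 5.42% in NCI-H358). Of 7 mesenchymal markers 4 (all genes 4.15%) and 7 (4.89% and 3.96%) were called higher. ESRP1 and ESRP2, not called in A549, were already low in its parental cells, at 3.53 and 3.68. KRT8 and CLDN4, named after their values were seen, were not called there either. KRT8 was high in both states of A549, at 12.6 and 12.1, a change of -0.54. CLDN4 was at 6.08 and 6.42, a change of 0.34 in the other direction. ZEB2 had the other sign in A549, at -0.46 (limma adjusted p = 0.00325). Among leukocyte, endothelial and adipocyte markers, 11 genes, the 1 call was CD14 in A549 at -1.36. The lung lineage factor NKX2-1 was at 3.68 and 3.90 in parental and mesenchymal A549 and at 9.18 and 9.64 in HCC827. In NCI-H358 it fell from 8.62 to 7.56, a change of -1.06 (limma adjusted p = 0.000154). The lineage markers SFTPB, at 5.6 to 5.8, and SFTPC, at 6.4 to 6.7 over the 6 groups, did not set A549 apart.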

How the data were processed

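Total RNA of 18 samples was hybridised to Affymetrix U133 Plus 2.0 arrays. The authors deposited log2 values normalised with RMA, 1 probe set per gene for 19849 genes; how that probe set was picked, and the genome build, are not given in the sources used here. No scanner intensities were used, so background and detection could not be checked. All columns matched a sample (0 without one).

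One limma (3.58.1, R 4.3.3) model of 6 groups was fitted to all 18 arrays (lmFit, eBayes), with contrasts within and between lines and Benjamini-Hochberg adjustment over all genes. Genes were called at an adjusted p under 0.05 and a fold above 2. The script was tested on simulated data. Arrays of a group differed by an SD of 0.163 to 0.282, so none was a copy, and array medians lay between 6.31 and 6.47. The number of arrays limits the precision.

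The genes and lists were chosen with earlier results of these data known. Named genes were the 10 members, the 5 nearest to PDK4, up to 2 highest and 2 lowest genes per list called in at least 2 lines in 1 direction, and 4 EMT markers; others are marked as named after their values were seen. Alternatives were the study's thresholds, no fold limit, separate fits per line, eBayes with trend, a filter on dim probe sets, median centring, array weights, an equal-variance test per line and leaving out each array. Replicate numbers follow only the order of the samples, so no block was fitted. Promoters came from RefSeq. One marker gene is not reported here.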

Additional observations from a re-analysis of the deposited data

Results flagged for a closer look

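Several genes changed upon EMT by amounts that differed between lines by over 1 on the log2 scale, as tested by the difference itself in limma. In each case the value is the change in the first line minus that in the second.

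CPT1A had the widest spread: NCI-H358 minus HCC827 was -5.53 (adjusted p = 1.03e-12), HCC827 minus A549 was 3.44 (1.48e-10) and NCI-H358 minus A549 was -2.09 (8.05e-08). ANGPTL4 gave -1.27 for HCC827 minus A549 (adjusted p = 1.6e-07), -3.74 for NCI-H358 minus A549 (2.51e-13) and -2.46 for NCI-H358 minus HCC827 (7.81e-11).

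FOXO1 gave -3.01 for HCC827 minus A549 (adjusted p = 1.22e-09) and -2.01 for NCI-H358 minus A549 (1.88e-07). PPARG gave -2.35 for HCC827 minus A549 (5.37e-11) and 1.38 for NCI-H358 minus HCC827 (6.02e-08). NR3C1 gave 1.68 for HCC827 minus A549 (5.81e-06) and 1.81 for NCI-H358 minus A549 (2.74e-06). PPARA gave -1.15 for HCC827 minus A549 (8.41e-06) and 1.28 for NCI-H358 minus HCC827 (3.23e-06).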

How the results depend on the processing

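Of the 27 changes upon EMT of the 9 genes, 23 kept their direction and stayed called or uncalled in every other fit that gave a value. There were up to 23 fits each, 18 of them without 1 array. Many of these fits could not alter the change itself, which is the difference between the 2 group means of a line. Its direction and size could move only with array weights, median centring or without an array of that same line. The other fits could alter only its adjusted p, so they say nothing about direction. Near 2-fold, leaving out single arrays, the FOXO1 change in NCI-H358 ranged from 0.969 to 1.243 and the PPARA change in HCC827 from -1.08 to -0.845. Near 0, the PPARGC1A change crossed sign, from -0.069 to 0.101 in A549 and from -0.163 to 0.034 in HCC827, where centring each array on its median gave 0.018. Of the 22 changes with an adjusted p under 0.05, 3 lost it in some fit (ESRRA in A549, NR3C1 in HCC827, PPARA in NCI-H358). PPARD in HCC827 crossed 0.05 the other way, from a limma adjusted p of 0.0837 to as low as 0.0428 in the other fits. Uncalled differences between lines also crossed 0 without single arrays: PPARGC1A, HCC827 minus A549, from -0.175 to 0.023 for the change and from -0.159 to 0.008 for the parental level; NR3C1, change in NCI-H358 minus HCC827, from -0.115 to 0.289 (-0.08 with array weights); and ESRRA, parental NCI-H358 minus A549, from -0.04 to 0.009. Without the fold limit, 7, 6 and 9 of the 9 genes were called in A549, HCC827 and NCI-H358 (all genes 43.4%, 45.8% and 41.4%), against 3 in each with it, and the study's thresholds called 2, 2 and 1 (all genes 1.9%, 2.95% and 2.17%). An equal-variance test per line called 3 in each line, before and after Benjamini-Hochberg adjustment. The causes were not tested. No paired analysis was possible because the labels give no replicate number shared between groups. The number of arrays and the missing detection calls set the limit, most of all for PPARGC1A, which the filter on dim probe sets left out and which therefore has no value there.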
